A study of Mus musculus with 18 samples.

Results

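Glucose uptake and breakdown were followed through 8 genes across normal liver, non-tumour liver and liver tumours: the carriers Slc2a1 and Slc2a2, the glycolytic enzymes Hk2, Aldoa, Pkm, Pklr and Ldha, and the pentose phosphate enzyme G6pdx. They were taken by gene symbol from a table of 54838 genes, where the 8 symbols matched 9 rows because Aldoa is listed on 2 gene models. Positions given with each gene are those of the whole gene on mm10. RNA-seq had been carried out on 18 mouse liver samples in 6 groups of 3, all from C57BL/6 mice aged 36 weeks. WT tumours and WT non-tumours came from wild type mice given 25 mg/kg of the liver carcinogen diethylnitrosamine (DEN) on postnatal day 12, and GKO tumours and GKO non-tumours came from DEN-treated mice in which miR-181ab1 (Mir181a-1 and Mir181b-1) was deleted in every tissue. WT normal livers and GKO normal livers came from untreated mice of the same genotypes. No label ties a tumour to a non-tumour sample. The study describes mRNA levels of its tumour and non-tumour groups as those of separate mice within a group, but no label says so for each sample, so the p-values are taken to measure the spread between these samples only.

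Glucose enters the hepatocyte through GLUT2, the product of Slc2a2, is phosphorylated and split by glycolytic enzymes, and reaches pyruvate through the liver form of pyruvate kinase (Pklr). Many dividing and tumour cells rely on GLUT1 (Slc2a1), hexokinase 2 (Hk2), aldolase A (Aldoa) and the muscle type pyruvate kinase (Pkm), and send pyruvate to lactate through lactate dehydrogenase A (Ldha). The same glucose 6-phosphate can be diverted to NADPH and ribose, and G6pdx encodes the enzyme of the first step of that route.

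The microRNAs made from Mir181a-1 and Mir181b-1, the genes deleted in the GKO mice, share 1 seed, bases 2 to 8. The study describes this cluster as the source of most mature miR-181 in human liver cancer, and mature microRNAs were not measured here. The seed is shown in capitals in the mature RefSeq sequences (GRCm38.p6, chromosome 1, plus strand) because it is the part that pairs with a target.
mmu-miR-181a-5p: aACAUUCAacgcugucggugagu
mmu-miR-181b-5p: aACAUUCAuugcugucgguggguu
The match to this seed, TGAATGT, was searched in the longest annotated 3′ UTR of each gene. Pkm, Pklr and Slc2a2 each held 1 match and the other 5 genes held none, where 16.4% of 21037 genes with a 3′ UTR held at least 1. None of the 3 matches was followed by an A, which would make a longer form of site. They are shown with the match in capitals, and such a match describes the sequence only.
Pkm: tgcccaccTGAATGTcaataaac
Pklr: acaggcccTGAATGTctgggtcc
Slc2a2: tatatggaTGAATGTgctttcta

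Promoter sequences are shown for Slc2a2 and Pklr, the genes with the widest differences between groups, and for Ldha, the promoter of the lactate step, for comparison. Each is the stretch of up to 250 bases before a RefSeq start that holds no annotated exon (GRCm38.p6, plus strand). Capitals mark 4 motifs searched on both strands: the carbohydrate response element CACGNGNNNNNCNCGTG, bound by the product of Mlxipl, the E-box CACGTG, and the hypoxia response cores ACGTG and GCGTG. The core ACGTG lies within the E-box.
Slc2a2, chr3:28697653-28697902: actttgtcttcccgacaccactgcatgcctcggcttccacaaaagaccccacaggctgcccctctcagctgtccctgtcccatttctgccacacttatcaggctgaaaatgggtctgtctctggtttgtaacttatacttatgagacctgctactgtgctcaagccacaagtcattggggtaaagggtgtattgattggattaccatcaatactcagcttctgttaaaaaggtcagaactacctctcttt
Pklr, second start, chr3:89136373-89136571: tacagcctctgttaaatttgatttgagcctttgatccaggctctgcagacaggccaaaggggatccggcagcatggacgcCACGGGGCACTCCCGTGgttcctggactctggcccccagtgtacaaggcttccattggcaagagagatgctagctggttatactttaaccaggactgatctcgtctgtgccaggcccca
Ldha, first start, chr7:46845554-46845803: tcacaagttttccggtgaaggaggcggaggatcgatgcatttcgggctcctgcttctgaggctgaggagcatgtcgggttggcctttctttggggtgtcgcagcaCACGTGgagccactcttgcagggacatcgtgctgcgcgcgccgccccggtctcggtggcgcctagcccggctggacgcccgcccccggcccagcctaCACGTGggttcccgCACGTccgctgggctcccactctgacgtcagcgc
The Pklr stretch held 1 carbohydrate response element, which starts 170 bases before the second transcription start. This exact pattern was present in 0.0396% of 32817 mouse promoter windows of 250 bases. The window before the first Pklr start, not shown, held none of the 4 motifs. The Ldha stretch held 2 E-boxes, and 6.02% of promoters held at least 1. The cores ACGTG and GCGTG were common, in 16.6% and 28.1% of promoters. None of the 4 motifs was in the Slc2a2 stretch, which says nothing about the factors that act on this gene.

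Values are TPM, that is reads per kilobase of gene scaled to a sum of 1000000 per sample, so levels of different genes may be set side by side. Recovered read totals ranged from 11925055 to 20751348 per sample. The deleted genes could not check the genotypes: Mir181b-1 was listed at 0 in all 18 samples and Mir181a-1 in 17, with 1 read in GKO tumour 3. Albumin (Alb), made by hepatocytes, lay between 22860 and 44070 TPM in normal and non-tumour livers and between 83550 and 139800 TPM in tumours, so this hepatocyte transcript was abundant in every library. Aldoa, Ldha and Pkm have processed copies elsewhere in the genome, and how reads shared with them were counted is not given in the sources used here. WT non-tumour 2 and WT tumour 3 stood apart from their groups in the proliferation marker Mki67, at 4.09 TPM against 0.178 and 0.266 TPM, and at 0.878 TPM against 8.72 and 9.44 TPM. In bulk tissue, fewer cells of a type and less RNA per cell cannot be told apart. Where the values of groups are said not to overlap, this describes the libraries only. The share of all genes without overlap is not given here.

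**Figure D1:**
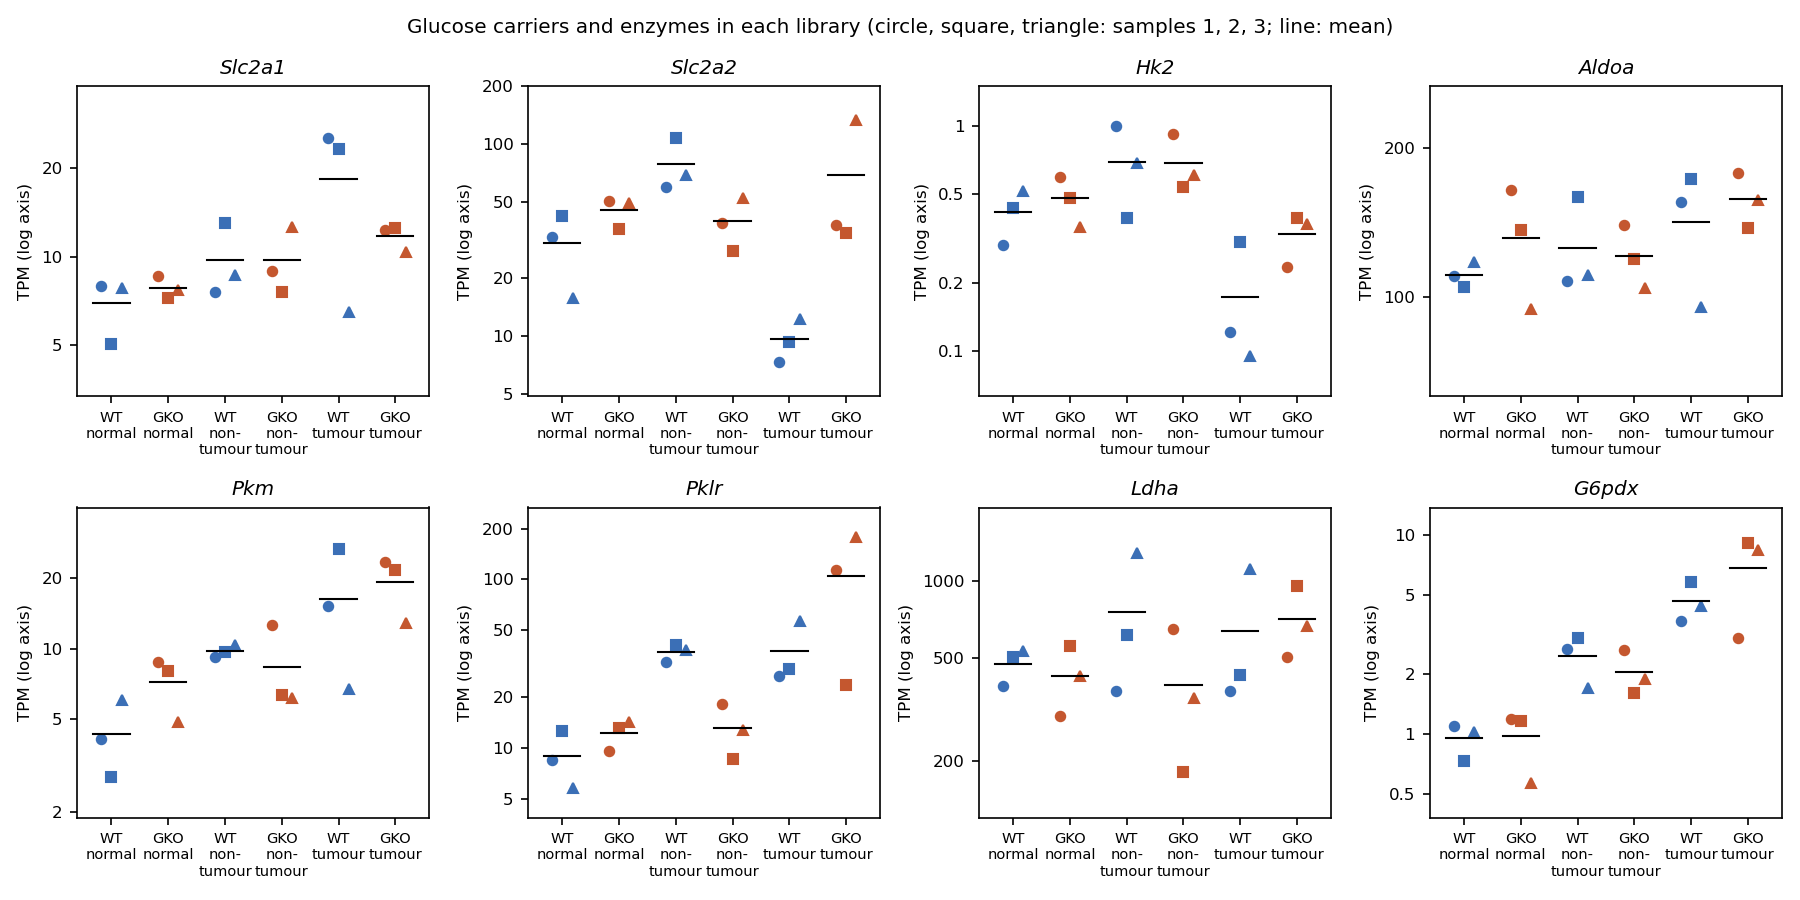
TPM (log axis) of each of the 8 genes in the 18 libraries; circles, squares and triangles are samples 1, 2 and 3 of a group (WT blue, GKO orange) and the line is the mean. The 3 WT tumours are the lowest libraries for Slc2a2, at 7.27 to 12.3 TPM, and G6pdx is higher in every tumour than in any normal liver.

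Slc2a2 (ENSMUSG00000027690, chr3:28697903-28731359, plus strand), the hepatocyte glucose carrier, was the member that set WT tumours apart. It was 7.27, 9.24 and 12.3 TPM in the 3 WT tumours against 59.3, 107.5 and 69.2 TPM in the 3 WT non-tumours. Every WT tumour was below every other library of the series, of which the lowest was WT normal liver 3 at 15.8 TPM. The group means were 9.60 ± 2.53 (SD, n = 3) and 78.7 ± 25.5 TPM (SD, n = 3), a ratio of 8.19. Slc2a2 fell in WT tumours by 2.89 on the log2 scale (SE 0.305, limma adjusted p = 0.00487), and the call held under all 16 alternatives, with changes from -3.08 to -2.64.

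GKO tumours did not show this low level. Slc2a2 was 37.9, 34.4 and 133.7 TPM in GKO tumours and 38.9, 27.6 and 52.2 TPM in GKO non-tumours. The groups overlapped, and GKO tumour 3 was the highest library of all 18. The log2 difference between GKO tumours and non-tumours was 0.54 (SE 0.529, limma adjusted p = 0.504) and -0.08 without GKO tumour 3. The difference between the genotypes in the tumour effect, tested as an interaction, was 3.43 on the log2 scale (SE 0.664) with an unadjusted p of 0.000287 but a limma adjusted p of 0.238, so it did not pass the threshold, and adjusted p ranged from 0.0602 to 0.925 over 22 alternatives.

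Set directly against each other, the 3 GKO tumours all lay above the 3 WT tumours in Slc2a2. The means were 68.7 ± 56.4 and 9.60 ± 2.53 TPM (SD, n = 3 each), a ratio of 7.15, and without GKO tumour 3 the GKO mean was 36.1 TPM, the ratio 3.76 and the log2 difference 1.83. The log2 difference of 2.45 (SE 0.523) had a limma adjusted p of 0.343, and of 16 alternatives it passed the threshold in 2, when low genes were not filtered out (adjusted p = 0.0493) and when every group shared the fit (adjusted p = 0.0178). Non-tumours stood in the opposite order. Slc2a2 averaged 39.5 ± 12.3 TPM in GKO non-tumours and 78.7 ± 25.5 TPM in WT non-tumours (SD, n = 3 each), with no overlap and a limma adjusted p of 0.643 for the difference. The log2 difference was -0.97 (SE 0.329). These comparisons share libraries and are not separate evidence.

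Ordered by mean, Slc2a2 ran from 78.7 TPM in WT non-tumours through 68.7 TPM in GKO tumours, 45.3 ± 8.02 TPM in GKO normal livers, 39.5 TPM in GKO non-tumours and 30.3 ± 13.4 TPM in WT normal livers to 9.60 TPM in WT tumours (SD, n = 3 each). The values of neighbouring groups in this order overlapped, except those of WT normal livers and WT tumours.

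Slc2a1 (ENSMUSG00000028645, chr4:119108711-119137983, plus strand), the carrier of many dividing cells, was high in WT tumours 1 and 2 only, at 25.3 and 23.2 TPM. WT tumour 3 was at 6.50 TPM, below all 3 WT non-tumours, which were at 7.57, 13.0 and 8.69 TPM. In GKO the tumours were at 12.3, 12.6 and 10.4 TPM and the non-tumours at 8.96, 7.57 and 12.6 TPM. The log2 difference in WT was 0.68 (SE 0.504, limma adjusted p = 0.519). Leaving out WT tumour 3 gave 1.26 (adjusted p = 0.0422), the lone alternative of 16 that passed. In GKO it was 0.28 (SE 0.236, limma adjusted p = 0.441). Slc2a1 differed by -0.40 (SE 0.479, limma adjusted p = 0.820) between GKO and WT tumours, with an interaction of -0.40 (SE 0.590, limma adjusted p = 0.795).

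The ratio of Slc2a1 to Slc2a2 combines these levels. WT tumours had ratios of 3.48, 2.51 and 0.529, and the ratio lay between 0.0777 and 0.496 in the other 15 libraries, including 0.326, 0.365 and 0.0777 in GKO tumours. The 3 WT tumours thus held the 3 highest ratios, and in WT tumours 1 and 2 alone did Slc2a1 exceed Slc2a2. The plot of ratios by library sets this beside the other pairs.

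**Figure D2:**
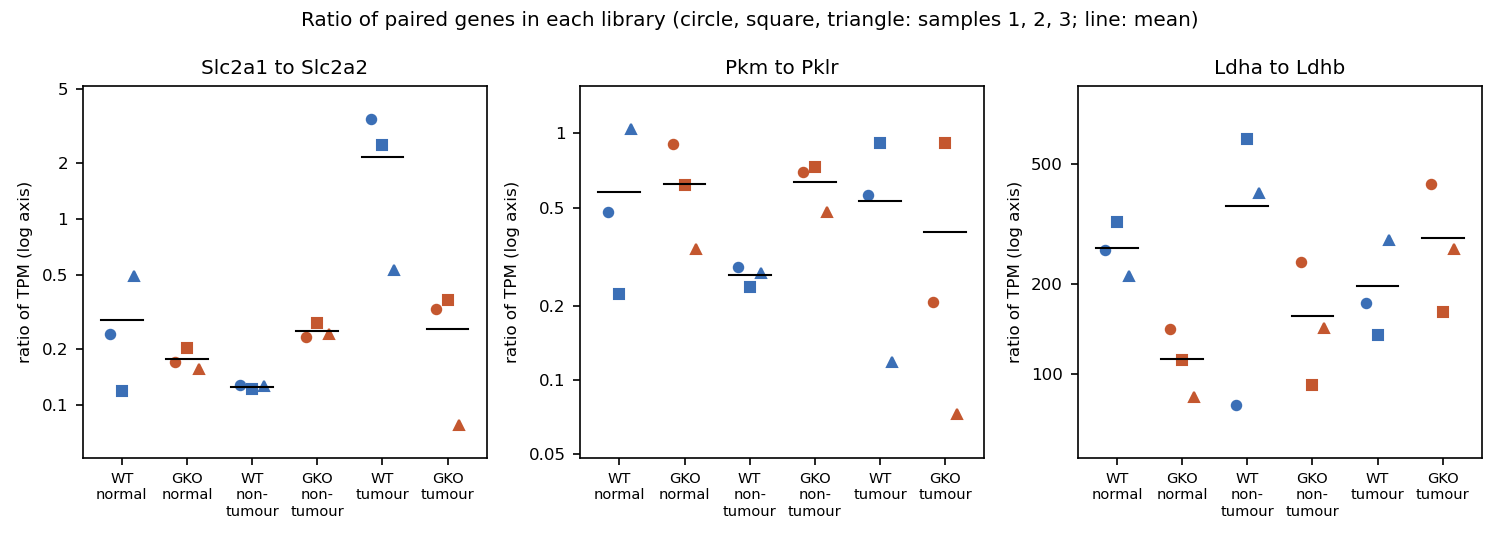
Ratio of the TPM of the form used by many other tissues to that of the liver form or partner gene (log axis) in the 18 libraries, symbols as before, with the group mean as a line. Slc2a1 exceeds Slc2a2 in WT tumours 1 and 2, Pkm stays below Pklr in every tumour, and Ldha exceeds Ldhb in every library.

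Hk2 (ENSMUSG00000000628, chr6:82725025-82774454, minus strand), which phosphorylates glucose in muscle and many tumours, was low in every library. Its highest level was 0.999 TPM, in WT non-tumour 1, and tumours were at 0.122, 0.306 and 0.0949 TPM in WT and at 0.236, 0.389 and 0.367 TPM in GKO. In each genotype every tumour was below every non-tumour, of which the lowest were 0.390 TPM in WT and 0.535 TPM in GKO. These levels rest on 5 to 49 reads a library. Hk2 passed the filter of 0.5 TPM in 4 of the 10 comparisons. The log2 difference between GKO tumours and non-tumours was -0.34 (SE 0.191, limma adjusted p = 0.261), and with no filter that between WT tumours and non-tumours was -0.51 (SE 0.219, limma adjusted p = 0.598). Hk2 was too low to be tested between GKO and WT tumours or for the interaction. Other hexokinase genes did not all follow Hk2. Hkdc1 was 3.82, 5.62 and 0 TPM in WT tumours and at most 0.191 TPM in WT non-tumours. Hk1 reached 8.59 TPM in GKO tumour 1. The mean of Hk3 was lower in tumours than in non-tumours, at 1.12 and 2.82 TPM in WT and 0.857 and 3.33 TPM in GKO. None of these partners was called between tumours and non-tumours.

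Pyruvate kinase was transcribed from both of its genes. Pklr (ENSMUSG00000041237, chr3:89136142-89146784, plus strand), the form of liver and red cells, was 27.0, 29.3 and 56.8 TPM in WT tumours and 32.2, 41.1 and 38.3 TPM in WT non-tumours, and these ranges overlapped. In GKO it was 113.9, 23.7 and 177.7 TPM in tumours and 18.2, 8.68 and 12.8 TPM in non-tumours, without overlap. The log2 difference was -0.06 (SE 0.322, limma adjusted p = 0.948) in WT and 2.54 (SE 0.693, limma adjusted p = 0.0552) in GKO. The latter missed the threshold narrowly and passed it under 6 of 15 alternatives, among them that with the replicate number as a block (adjusted p = 0.0304) and that without GKO tumour 2 (adjusted p = 0.00603).

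The GKO tumours differed among themselves in Pklr by more than any other group, with GKO tumour 2 below all 3 WT tumours. The interaction was 2.60 (SE 0.849, limma adjusted p = 0.417), and without GKO tumour 2 it was 3.45 (adjusted p = 0.0443). The direct difference between GKO and WT tumours was 1.12 (SE 0.723, limma adjusted p = 0.688). In non-tumours the order was the opposite, with GKO below WT and no overlap, at a log2 difference of -1.48 (SE 0.287, limma adjusted p = 0.643).

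Pkm (ENSMUSG00000032294, chr9:59656368-59679375, plus strand), whose M2 splice form marks dividing cells, is measured here as a whole gene, so its splice forms are not separated. It was 15.2, 26.9 and 6.73 TPM in WT tumours against 9.25, 9.72 and 10.4 TPM in WT non-tumours, with WT tumour 3 below all 3. In GKO it was 23.5, 21.7 and 12.9 TPM in tumours and 12.6, 6.35 and 6.13 TPM in non-tumours, without overlap. The log2 differences were 0.49 (SE 0.445, limma adjusted p = 0.599) in WT and 1.14 (SE 0.343, limma adjusted p = 0.0713) in GKO. With the replicate number as a block the GKO difference passed (adjusted p = 0.0467), as it did without GKO non-tumour 1 (1.45, adjusted p = 0.0397). Between GKO and WT tumours Pkm differed by 0.38 (SE 0.482, limma adjusted p = 0.832), and its interaction was 0.65 (SE 0.600, limma adjusted p = 0.661).

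Pkm exceeded Pklr in no tumour. The ratio of Pkm to Pklr was 0.565, 0.916 and 0.119 in WT tumours and 0.206, 0.918 and 0.0724 in GKO tumours, and it exceeded 1 in a single library, WT normal liver 3, at 1.04. The lowest ratios were in WT tumour 3 and GKO tumour 3, and GKO tumour 2 had nearly the same ratio as WT tumour 2. Ordered by mean, Pklr ran from 105.1 ± 77.4 TPM in GKO tumours through 37.7 ± 16.6 and 37.2 ± 4.52 TPM in the tumours and non-tumours of WT mice, 13.2 ± 4.78 TPM in GKO non-tumours and 12.4 ± 2.39 TPM in GKO normal livers to 9.03 ± 3.45 TPM in WT normal livers (SD, n = 3 each), and among neighbours the WT and GKO non-tumours alone did not overlap.

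G6pdx (ENSMUSG00000031400, chrX:74409483-74429194, minus strand), the entry to the pentose phosphate route, stood at 3.69, 5.81 and 4.38 TPM in tumours of WT mice and at 3.02, 9.13 and 8.35 TPM in those of GKO mice. Non-tumours were at 2.69, 3.02 and 1.71 TPM in WT and at 2.65, 1.62 and 1.89 TPM in GKO, and the 6 normal livers lay between 0.572 and 1.19 TPM. In both genotypes every tumour was above every non-tumour, and every non-tumour above every normal liver. Among all genes, 19.9% in WT and 31.7% in GKO had an unadjusted limma p under 0.05 between tumours and non-tumours. Between non-tumours and normal livers these shares were 24.4% and 5.2%. The log2 differences of G6pdx between tumours and non-tumours were 0.70 (SE 0.244, limma adjusted p = 0.181) in WT and 1.26 (SE 0.371, limma adjusted p = 0.0675) in GKO, neither past the threshold. In GKO the call was made without GKO tumour 1 (1.69, adjusted p = 0.0161). The direct difference of G6pdx between GKO and WT tumours was 0.38 (SE 0.386, limma adjusted p = 0.779) and the interaction 0.56 (SE 0.470, limma adjusted p = 0.631). Its levels rest on 15 to 230 reads a library.

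Ldha and Aldoa, the most abundant members by mean level in all groups, gave no limma call in any of the 10 comparisons. Ldha (ENSMUSG00000063229, chr7:46841475-46855627, plus strand), which turns pyruvate into lactate, ranged from 180.4 TPM in GKO non-tumour 2 to 1284 TPM in WT non-tumour 3, a 7.12-fold range, and the largest values of WT tumours and WT non-tumours were both those of sample 3. The log2 difference between tumours and non-tumours was -0.24 (SE 0.582, limma adjusted p = 0.870) in WT and 0.99 (SE 0.482, limma adjusted p = 0.202) in GKO. GKO and WT tumours differed in Ldha by 0.28 (SE 0.466, limma adjusted p = 0.881), with an interaction of 1.23 (SE 0.819, limma adjusted p = 0.555). The partner Ldhb was at 1.01 to 5.92 TPM, and Ldha exceeded it from 79.3 to 608.2 times.

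Aldoa (ENSMUSG00000030695, chr7:126795234-126800751, minus strand), the aldolase of muscle and many other tissues, had the narrowest range of the members, from 94.3 to 178.5 TPM, a 1.89-fold range. Its log2 difference between tumours and non-tumours was 0.15 (SE 0.312, limma adjusted p = 0.850) in WT and 0.38 (SE 0.231, limma adjusted p = 0.286) in GKO. For GKO against WT tumours it was 0.19 (SE 0.282, limma adjusted p = 0.858), and the interaction was 0.24 (SE 0.379, limma adjusted p = 0.815). The second gene model listed as Aldoa had at most 10 reads and is not considered further.

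The untreated livers set the base of these levels. Slc2a1 was 7.94, 5.04 and 7.84 TPM in WT normal livers and 8.58, 7.25 and 7.67 TPM in GKO normal livers. Ldha averaged 476 ± 75.8 TPM in WT normal livers (SD, n = 3), and Pkm was 4.09, 2.84 and 6.05 TPM there. Hk2 lay between 0.296 and 0.594 TPM in the 6 normal livers. When the 6 groups were ordered by mean, no neighbours of Slc2a1, Hk2, Aldoa, Pkm or Ldha stood apart, since their values overlapped at every step. For G6pdx 2 steps did not overlap, that from WT tumours to WT non-tumours and that from GKO non-tumours to GKO normal livers.

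**Figure D3:**
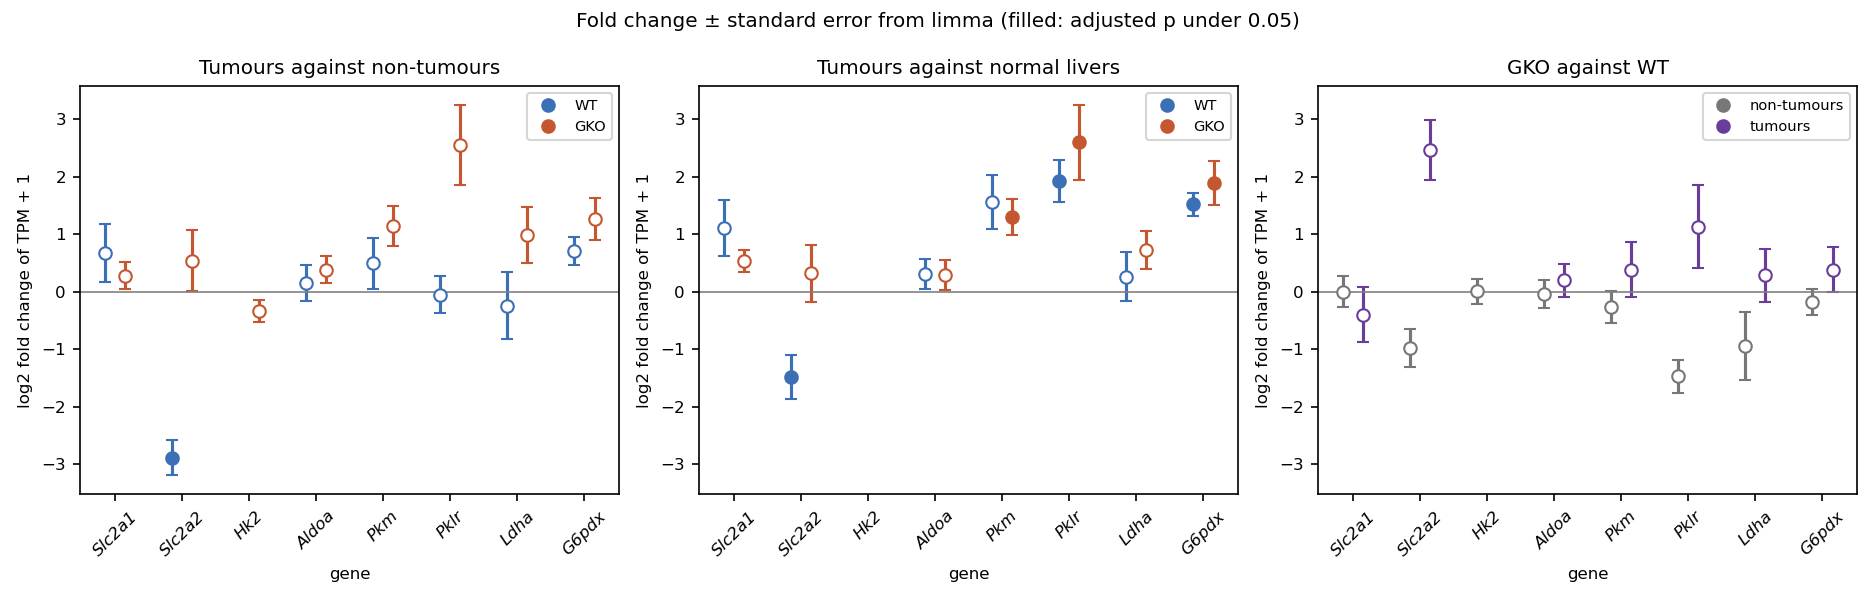
Log2 fold change of TPM + 1 ± standard error from limma for each gene, in tumours against non-tumours (left), tumours against normal livers (middle) and GKO against WT (right); filled points have an adjusted p under 0.05, and Hk2 has no point where it was too low to be tested. Slc2a2 in WT is the filled point on the left, at -2.89.

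Counted over the members, 1 of 7 tested was called lower and none higher in WT tumours against their non-tumours, where 2.07% of 14003 genes were called lower and 2.16% higher. Between GKO tumours and GKO non-tumours none of 8 was called, where 7.75% of 14092 genes were higher and 3.97% lower, and 3 members had an unadjusted p under 0.05, as did 31.7% of all genes. Voom on recovered reads called 1 of the 8. The median log2 difference of the members was 0.15 in WT and 0.76 in GKO, beside -0.02 and 0.20 over all genes tested. Between GKO tumours and WT tumours none of 7 was called, where 0.0215% of 13964 genes were, and 1 had an unadjusted p under 0.05, as did 8.87% of all genes. For the interaction none of 7 was called, where 0.0142% of 14106 genes were, and 2 had an unadjusted p under 0.05, as did 10.5% of all genes. Voom called no member in either.

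Against untreated livers, more members were called higher than against non-tumours, and so were more of all genes. The share of all genes called higher was 21.2% in WT and 16.2% in GKO, against 2.16% and 7.75% with non-tumours. Whether the members differed from these shares was not tested. In WT tumours 2 of 7 members were called higher and 1 lower than in WT normal livers, where 21.2% and 6.33% of 13644 genes were. Pklr rose by 1.93 (SE 0.366, limma adjusted p = 0.0118), from 8.56, 12.7 and 5.83 TPM in the WT normal livers. G6pdx rose by 1.51 (SE 0.200, limma adjusted p = 0.00365), to 4.86 times the mean of WT normal livers. Slc2a2 fell by 1.49 (SE 0.375, limma adjusted p = 0.029), from 32.9, 42.3 and 15.8 TPM, a call lost with the replicate number as a block (adjusted p = 0.0633), with WT tumours 1 and 2 averaged, and without WT tumour 1, WT tumour 2, WT normal liver 1 or WT normal liver 2 (adjusted p from 0.0794 to 0.107). Without WT tumour 3, 6 of the 7 members were called, and without WT normal liver 1 only 1 was. Calls over all genes moved the same way, from 2887 higher and 863 lower of 13644 in the reported fit. They were 4248 higher and 1277 lower of 13633 without WT tumour 3. Without WT normal liver 1 they were 1080 higher and 348 lower of 13703.

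In GKO tumours 3 of 7 members were called higher and none lower than in GKO normal livers, where 16.2% and 3.93% of 13928 genes were. Pkm rose by 1.30 (SE 0.307, limma adjusted p = 0.0259), from 8.76, 8.06 and 4.86 TPM. Pklr rose by 2.59 (SE 0.657, limma adjusted p = 0.0322), from 9.68, 13.1 and 14.3 TPM, and G6pdx by 1.89 (SE 0.378, limma adjusted p = 0.0156), from 1.19, 1.17 and 0.572 TPM. Slc2a2 had a log2 difference of 0.32 (SE 0.493, limma adjusted p = 0.672). The median of all genes was itself shifted by 0.31 in this comparison and by 0.29 in that of WT. Relative to that median, in a fit of centred samples, G6pdx alone kept its call in GKO (1.54, limma adjusted p = 0.0313), while Pkm was at 0.95 (adjusted p = 0.0918) and Pklr at 2.25 (adjusted p = 0.0642). Leaving out GKO normal liver 2 or GKO normal liver 3 left no call, and leaving out GKO tumour 1, GKO tumour 3 or GKO normal liver 1 left 1. Calls over all genes fell too, from 2255 higher and 547 lower of 13928. They were 731 and 199 of 14024 without GKO normal liver 2, and 1106 and 439 of 14018 without GKO normal liver 3.

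The remaining comparisons gave no called member. Between WT non-tumours and WT normal livers none of 8 was called, where 0.00744% of 13440 genes were, and 4 members had an unadjusted p under 0.05, as did 24.4% of all genes. All 8 differences were positive where the median of all genes was itself 0.32, and with centred samples those of Hk2 (-0.13) and Aldoa (-0.22) were negative. Pklr was the widest of these, at 1.98 (SE 0.278, limma adjusted p = 0.114), with every WT non-tumour above every WT normal liver. Between GKO non-tumours and GKO normal livers the difference in Pklr was 0.05 (SE 0.290, limma adjusted p = 1.0), none of 8 members was called, and 1 had an unadjusted p under 0.05. Between GKO and WT non-tumours none of 8 was called and 2 had an unadjusted p under 0.05, and between GKO and WT normal livers none of 7 was called, with 0 under 0.05 unadjusted. In these last 3 comparisons 0% of 13530, 13768 and 13099 genes were called by limma, and 5.2%, 5.8% and 3.96% had an unadjusted p under 0.05. Voom called no member in these or in WT non-tumours against WT normal livers.

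Other genes of the pathways were read from lists of partner isozymes, other glucose carriers, other glycolysis enzymes, gluconeogenesis, pentose phosphate, lactate and pyruvate handling, glycogen, regulators and hypoxia responsive genes, 82 genes in all. In WT tumours against their non-tumours 2 of 69 tested were called, both lower, where 2.07% of all genes were lower. They were Pfkl, the liver phosphofructokinase (14.0 ± 1.10 to 6.07 ± 1.63 TPM, SD, n = 3 each, log2 change -1.11, limma adjusted p = 0.0463), and Pdk2, a kinase that restrains pyruvate entry to mitochondria (72.7 ± 6.39 to 33.5 ± 3.82 TPM, SD, n = 3 each, log2 change -1.10, limma adjusted p = 0.0363). The median over the lists was -0.12, beside -0.02 over all genes tested.

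Between GKO tumours and GKO non-tumours 5 of 71 listed genes were called higher and 2 lower, where 7.75% and 3.97% of all genes were, with a median of 0.53 beside 0.20 over all genes tested. The higher genes were Aldoc, the brain aldolase (2.08, limma adjusted p = 0.0238), Pck2, the mitochondrial enzyme of gluconeogenesis (1.99, limma adjusted p = 0.00979), Pgd, the next dehydrogenase of the pentose phosphate route after G6pdx (1.33, limma adjusted p = 0.0144), Srebf1, a regulator of lipid and glucose genes (1.79, limma adjusted p = 0.0372), and Ptbp1, a splicing factor of Pkm (1.43, limma adjusted p = 0.0339). The lower genes were Eno3, an enolase (-0.98, limma adjusted p = 0.0305), and Mlxipl, whose product binds the carbohydrate response element (-1.52, limma adjusted p = 0.0309). Mlxipl was 20.3, 27.9 and 48.1 TPM in GKO tumours and 76.2, 92.7 and 97.7 TPM in GKO non-tumours. Pklr, whose promoter stretch at the second start holds that element, was not called in this comparison (log2 difference 2.54, limma adjusted p = 0.0552). A relation between the levels of Mlxipl and Pklr was not tested.

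Pfkl, called lower in WT tumours than in WT non-tumours, was not called between GKO and WT tumours. It was 31.7, 14.8 and 17.7 TPM in GKO tumours, all above the 4.88, 5.42 and 7.93 TPM of WT tumours, with a direct log2 difference of 1.62 (SE 0.328, limma adjusted p = 0.315) and an interaction of 2.00 (SE 0.393, limma adjusted p = 0.248). None of 71 listed genes was called by limma between GKO and WT tumours and none of 72 for the interaction, where 9 and 13 had an unadjusted p under 0.05, as did 8.87% and 10.5% of all genes. Among hypoxia responsive genes outside glycolysis, none of 5 was called in WT tumours and none of 6 in GKO tumours against non-tumours. Of this list, 1 of 5 tested genes in WT tumours and 1 of 6 in GKO tumours were called higher than in normal livers. Both calls were Adm, a secreted peptide (1.27, limma adjusted p = 0.0316 in WT, and 1.24, limma adjusted p = 0.0138 in GKO). The medians of the list were -0.24 in WT and 0.01 in GKO, beside 0.29 and 0.31 over all genes tested. Against normal livers, 15 of 68 listed genes were called higher and 1 lower in WT tumours, and 14 of 71 higher and none lower in GKO tumours, where 21.2% and 16.2% of all genes were higher. Pgk1, Pgam1, Pck2, Pgd and the splicing factors Ptbp1 and Hnrnpa1 were among the higher genes in both.

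**Figure D4:**
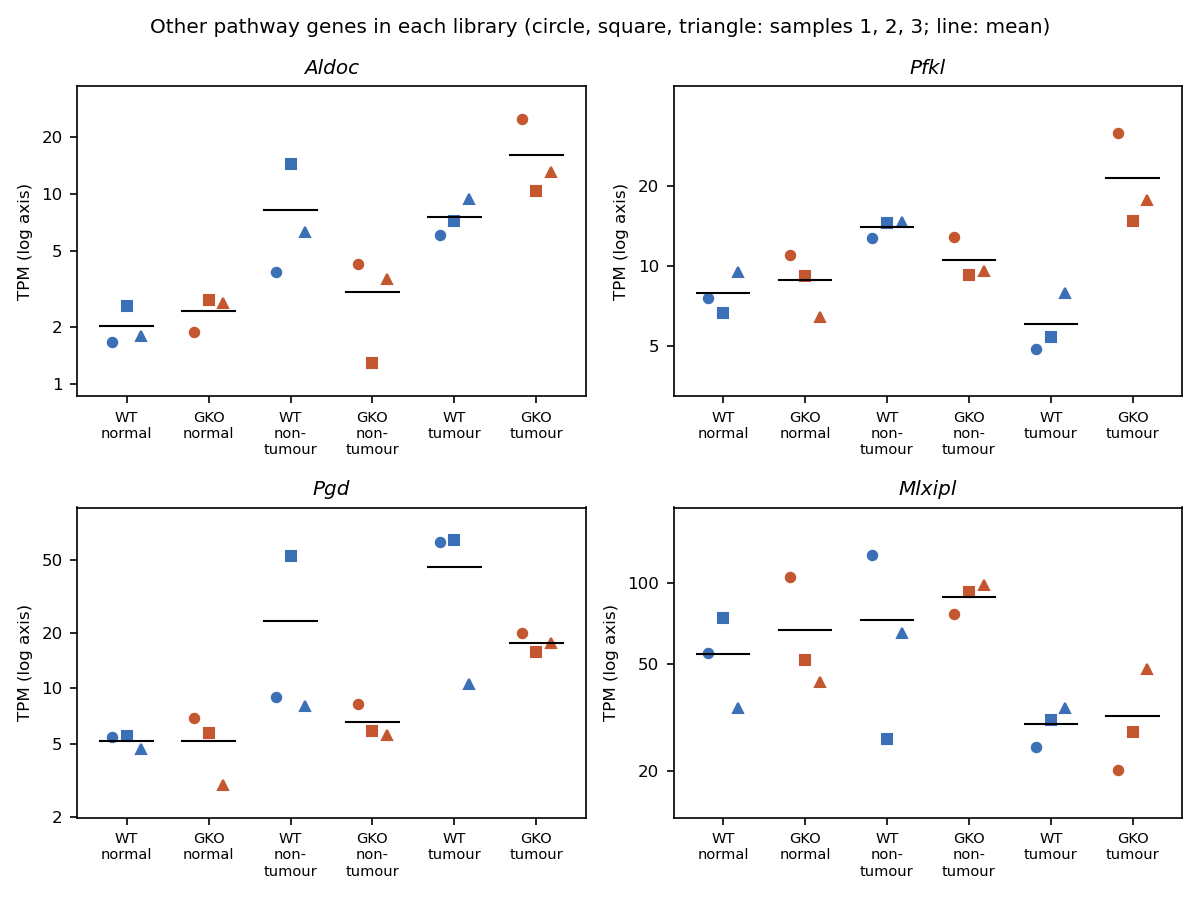
TPM (log axis) of 4 other pathway genes in the 18 libraries, symbols as before. Pfkl is lower in all 3 WT tumours than in any WT non-tumour, and Mlxipl is lower in all 3 GKO tumours than in any GKO non-tumour.

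Markers of other cells differed between groups too. The summed TPM of 7 fibroblast and stellate cell markers ran from 41.2 to 60.4 in WT non-tumours and from 51.1 to 92.4 in WT tumours, and from 45.4 to 68.3 in GKO non-tumours and from 95.3 to 184.7 in GKO tumours. That of 6 macrophage markers ran from 135.3 to 297.8 and from 63.4 to 144.0 in the WT groups and from 107.7 to 548.0 and from 74.2 to 237.3 in the GKO groups, in the same order. That of 6 cholangiocyte markers reached 959.2 in GKO tumours, through Spp1. The sum of 5 proliferation markers was 20.8 to 53.3 in WT non-tumours, 21.5 to 84.4 in WT tumours, 10.1 to 19.1 in GKO non-tumours and 29.1 to 61.3 in GKO tumours, so that the GKO groups did not overlap. WT tumour 3 was the lowest WT tumour in Mki67, Slc2a1, Pkm, Aldoa and Hk2, and the highest in Pklr, Ldha and Slc2a2. Its G6pdx level lay between those of WT tumours 1 and 2. No marker of these lists was at 0 in all libraries of a group, and their part in the results was not tested. The summed level of 6 skeletal muscle markers was at most 5.03 TPM in any library, and Myh4 was at 0 in all 18. Of 5 hepatocyte markers 1 was called higher in WT tumours than in WT non-tumours, with sums of 166100 to 180500 TPM against 68180 to 86610 TPM in WT non-tumours. Most of the sum was Alb and Apoa1, whose means went from 39490 to 105600 TPM and from 21870 to 55030 TPM. Hnf4a went from 164.2 to 181.6 TPM, while Ttr fell from 15360 to 12290 TPM and Cps1 from 311.7 to 235.0 TPM. No marker of the other lists was called between these WT groups. Between GKO tumours and GKO non-tumours, 3 members (Pklr, Pkm and G6pdx) had an unadjusted limma p under 0.05, as did 31.7% of all genes. There 4 of 5 proliferation, 5 of 7 fibroblast and stellate cell, 2 of 6 endothelial and 2 of 5 hepatocyte markers were called higher. In the same comparison 1 fibroblast and stellate cell, 1 macrophage, 1 lymphocyte and 1 erythroid marker were called lower.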

How the data were processed

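RNA-seq libraries of 18 liver samples were grouped by the source names in the labels (6 groups of 3). Per the study's methods and the labels, the authors mapped reads to mm10 by STAR (2.7.3a), assigned them to genes by featureCounts (2.0.0), and deposited TPM values that sum to 1000000 per sample. The annotation and the calculation of TPM are not given in the sources used here. TPM times the exonic length of GENCODE mouse release 21 gave whole reads, within 0.02, for 97.95 to 98.67% of low values, which supplied the depths.

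log2(TPM + 1) was tested with limma (3.58.1, R 4.3.3), with a trended variance, among all genes whose mean over the compared samples reached 0.5 TPM. Each comparison used its own groups, p-values were adjusted by Benjamini-Hochberg over all genes tested, and an adjusted p under 0.05 was a call. Fold changes on this scale understate changes of low genes. With 3 samples against 3, an exact permutation test cannot go below 0.1, so none was used. Some genes of the pathways are not reported here. The members and lists were chosen with earlier results of these data known. The rule was to give all 8 members their values in tumours against non-tumours, in GKO against WT tumours and for the interaction, called members elsewhere, called genes of the lists, and the 3 genes most like each member by Pearson r.

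Deviations from the group means were weakly correlated between same-numbered samples of GKO and WT tumours (r of 0.101, 0.12 and 0.197). In the other comparisons at least 1 pair did not exceed 0.1, and values ran from -0.315 to 0.249. Pairs with different numbers were not correlated, so these values cannot show a pairing. Nothing in the labels says that the numbers mark shared mice. Alternatives were another pseudocount (0.1), no filter, a filter of 5 TPM, quantile normalization, centring on the median, a joint fit of the 18 samples, no variance trend, a replicate block, limma voom on recovered reads, WT tumours 1 and 2 averaged, and each sample left out.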

Additional observations from a re-analysis of the deposited data

How the results depend on the processing

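Of 160 counts of called members under the alternatives, 137 stayed within 1.5 times the count reported, including counts of 0 that stayed 0. That total therefore does not measure how stable the calls were. Of the 23 others, those of GKO tumours against GKO non-tumours went from 0 to 1 with no filter, a mean of at least 5 TPM or voom on recovered reads, to 2 with all 18 samples in one fit, and to 2 with the replicate number as a block, and ranged from 0 to 1 with a sample left out. Those of GKO tumours against WT tumours became 1 with no filter and 1 with all 18 samples in one fit, and that of WT non-tumours against WT normal livers became 1 with no filter. WT tumours against WT normal livers gave 5 with all 18 samples in one fit and 1 to 6 with a sample left out. GKO tumours against GKO normal livers gave 1 with median centring, 1 with quantile normalization and 0 to 2 with a sample left out. Leaving out a sample gave 1 to 2 for WT tumours against WT non-tumours and 0 to 1 for the interaction. The replicate block, or pairing, moved no other count by over 1.5 times, though it ended the call of Slc2a2 between WT tumours and WT normal livers. The cause was not tested.

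Of 583 values of single members, 14 changed sign, none of them called. With WT tumours 1 and 2 averaged, Pklr was 0.11 and Ldha 0.00527 in WT tumours against non-tumours. With a sample left out, these ranged from -0.39 to 0.14 for Pklr, -0.0203 to 0.41 for Aldoa and -0.74 to 0.23 for Ldha. Slc2a2 in GKO tumours against non-tumours ranged from -0.0824 to 0.88. Between GKO and WT tumours Pkm ranged from -0.11 to 0.82, Aldoa from -0.0664 to 0.36 and Ldha from -0.0168 to 0.77. The interaction of Aldoa was -0.0247 with quantile normalization and -0.0247 to 0.40 with a sample left out.

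The count of all genes called ranged from 163 to 1649 in WT tumours against non-tumours (592 reported) and from 229 to 2722 in GKO (1652 reported). Against normal livers it ranged from 1428 to 5525 in WT tumours (3750 reported) and from 930 to 3871 in GKO tumours (2802 reported). Groups of 3 and the low levels of Hk2 and G6pdx limit the precision of these values.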

Other observations

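For each member, the genes whose level followed it most closely over the 18 libraries were sought among 6858 genes that averaged 5 TPM or more. These correlations are descriptions over libraries that share groups, with no test. Pkm was most like Cd74, an antigen-presentation chaperone of immune cells (Pearson r 0.951), Capzb, an actin capping protein (0.919), and Flna, an actin crosslinker (0.909). Pklr was most like Mid1ip1, a stimulator of fatty acid synthesis (0.938), and Tmbim6 (0.935). Hk2 was most like Gm12473 (0.897), Ifitm1 (0.860) and Marco, a receptor of resident macrophages (0.850).

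Slc2a2 was most like Fam102a (0.926), Faah, a fatty acid amide hydrolase (0.913), and Gpbp1l1 (0.880). Slc2a1 was most like Spcs3 (0.889), Ube2c, an enzyme of mitotic exit (0.889), and Txndc11 (0.888). G6pdx was most like Rnf220 (0.927), Pxn, a focal adhesion protein (0.927), and Kdm4a, a histone demethylase (0.916). Ldha was most like Grhpr, a glyoxylate reductase (0.916), Txndc15 (0.892) and Ppcs, an enzyme of coenzyme A synthesis (0.877). Aldoa was most like Cct7, a chaperonin subunit (0.907), Srp68 (0.904) and Ubl4a (0.883). By Spearman's rho in place of Pearson r, 2 of the 3 genes were shared for Pklr and 1 of 3 for each of the other members.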
